A study of Mus musculus and Homo sapiens with 30 samples.

Results

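The genes described here are 10 mouse genes of the NF-kB response: the inhibitors Nfkbia and Tnfaip3, the NF-kB subunit Relb, the secreted factors Cxcl1, Cxcl2, Cxcl5, Ccl2, Csf1 and Il6, and the membrane-bound chemokine Cx3cl1. They were picked by symbol, with earlier results of these data known. By Ensembl gene ID they were matched to 10 of the 56980 rows of the mouse count table. Poly(A) RNA was sequenced from E0771, a mouse mammary cancer line, and from NMuMG, a mouse mammary gland epithelial line that the sample labels also list under breast cancer. Each line was kept for 16 h in 1 of 3 media, with 3 libraries per group and 18 mouse libraries in all: standard growth medium (control), or a mixture holding 50% secretome, the medium conditioned by inguinal fat cells, of a lean or an obese source. E0771 grew in DMEM with 10% FBS, and for the NMuMG medium the labels also name insulin (10 mcg/ml) and 4.5 g/L of glucose. No level of glucose or insulin is given for E0771. Lean against obese secretome is therefore the one contrast at an equal secretome share, since control cells got none. The labels do not say from which animals or how many the adipocytes came, nor whether the 3 libraries of a group came from separate cultures, so the p-values measure only the spread between these libraries.

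NF-kB is a family of dimeric transcription factors held inactive in the cytoplasm by inhibitor proteins until a cytokine or microbial signal activates the IKK kinase. The active dimers switch on chemokines and cytokines that draw in leukocytes, and they also switch on their own inhibitors, which ends the signal. In the mammary gland and its tumours, epithelial cells can release such factors and so recruit neutrophils, through chemokines of the CXC type, or monocytes and macrophages, through Ccl2 and Csf1.

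The promoters of 7 of the 10 genes were found among the RefSeq promoter windows of build GRCm38.p6. Relb, Cxcl5 and Ccl2 had no window there. Within the 250 bases before the annotated start, 6 of these 7 genes (Nfkbia, Tnfaip3, Cxcl1, Cxcl2, Csf1 and Il6) held a match to the kappaB consensus, the DNA motif bound by NF-kB, on either strand, and Cx3cl1 held none. The same match stood in 7.25% of all 32851 windows, which belong to 27025 gene symbols. That share is per window, while the 6 of 7 counts genes with a match in any of their windows. The members were picked as genes of the NF-kB response, so 6 of 7 beside 7.25% is description and not a test. These letters describe the windows and are not evidence of binding. The 160 bases upstream of the start are printed below for 4 genes because the pairs differ in the libraries: Cxcl1 and Cxcl2 are neighbours on chromosome 5 that share the same 11 letters at the motif, yet in NMuMG reads of the first were plentiful and those of the second nearly absent; Nfkbia and Tnfaip3 both encode feedback inhibitors, yet in NMuMG the RNA of Tnfaip3 passed the test in 3 contrasts of media and that of Nfkbia in 1. Capitals mark the kappaB consensus, and sequences read 5′ to 3′ on the gene's strand.
Cxcl1 (chr5:90891085-90891244, + strand): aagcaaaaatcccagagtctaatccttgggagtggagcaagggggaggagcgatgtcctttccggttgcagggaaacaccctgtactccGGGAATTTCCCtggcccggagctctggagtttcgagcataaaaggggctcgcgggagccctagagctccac
Cxcl2 (chr5:90903739-90903898, + strand): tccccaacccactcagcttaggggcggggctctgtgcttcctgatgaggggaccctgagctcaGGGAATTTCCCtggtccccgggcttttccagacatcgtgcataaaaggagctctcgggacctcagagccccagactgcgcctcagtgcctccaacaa
Nfkbia (chr12:55492648-55492807, - strand): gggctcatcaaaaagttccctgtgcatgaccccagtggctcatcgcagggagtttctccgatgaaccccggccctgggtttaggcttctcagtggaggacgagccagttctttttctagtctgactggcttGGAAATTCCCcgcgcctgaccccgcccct
Tnfaip3 (chr10:19015411-19015570, - strand): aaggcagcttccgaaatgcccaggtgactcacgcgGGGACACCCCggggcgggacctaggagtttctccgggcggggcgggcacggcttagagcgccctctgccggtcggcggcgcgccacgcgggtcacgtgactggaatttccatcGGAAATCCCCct
The capitals begin 71 bases before the start in Cxcl1 and 97 bases before it in Cxcl2. In Nfkbia they begin 29 bases before the start, and in Tnfaip3 at 125 and at 12 bases before it. RefSeq gives Tnfaip3 a second window, which held no match.

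Library totals ran from 22929035 to 31094119 reads in E0771 and from 23966897 to 29686456 in NMuMG. Values are given in CPM, the count of a gene divided by its library total and multiplied by 1000000, which are not scaled by gene length and are compared here only within a gene. The low-count filter passed 6 of the 10 genes in E0771 and 8 in NMuMG: Cxcl2 and Il6 were too low to test in either line, and Cxcl1 and Cxcl5 too low in E0771. One library is given apart below: lean replicate 3 of E0771 was the highest of the 3 lean libraries in 6 of 6 tested members, and it was furthest along the lean effect in 54.1% of the 7770 genes called for lean over control, against 27.4% for replicate 1 and 18.4% for replicate 2. In NMuMG lean replicate 3 was furthest in 50.8% of the 5731 genes called (30.2% for replicate 1 and 19% for replicate 2) and was the highest lean library in 4 of 8 tested members, with replicate 1 the highest in the other 4. Marker genes were checked against the labels. In NMuMG the 9 epithelial markers summed to between 7107 and 7522 CPM in control, 6719 and 7018 CPM in obese and 7807 and 8088 CPM in lean libraries, and 1 of them, Krt5, averaged 0.227, 0.478 and 5.99 CPM in the same order. In E0771 they summed to between 229 and 258 CPM, nearly all of it Krt8, and 5 of the 9 were at 0 in all 3 control libraries. The macrophage marker Tyrobp was at 0 in all 18 libraries and Adgre1 reached at most 1 read in a library. Of the 8 macrophage and leukocyte markers, Cd14 alone was high in NMuMG (179 CPM in control, 196 in lean and 174 in obese), and in E0771 the list summed to between 4.55 and 6.79 CPM in control, 5.35 and 6.59 in obese and 6.85 and 7.23 in lean, with Tyrobp and Aif1 at 0 in all 9. Most of that sum was Lyz2 (3.10, 3.19 and 3.23 CPM in control, obese and lean) and Cd68 (1.99, 1.74 and 2.13). Within E0771, low reads of Ptprc and Csf1r were most frequent in the lean libraries. Ptprc had 0 reads in control, 0 to 1 in obese and 4 to 9 in lean. Csf1r had 0 to 4, 0 to 3 and 4 to 16 reads. NMuMG held such reads in all media: 3 to 8, 2 to 7 and 3 to 9 of Ptprc in control, obese and lean. Its Csf1r reads were 2 to 9, 4 to 11 and 10 to 16. In bulk RNA, fewer cells of a type and less RNA per cell cannot be told apart.

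Among the feedback genes, Tnfaip3, which encodes a ubiquitin-editing enzyme that shuts off signalling upstream of IKK, had the largest rise, which was in NMuMG. In NMuMG, Tnfaip3 (ENSMUSG00000019850) stood at 48.6, 49.0 and 47.5 CPM in the control libraries, at 61.0, 52.7 and 56.4 CPM in the obese libraries and at 86.4, 82.2 and 83.9 CPM in the lean libraries. The 3 groups did not overlap, with control lowest and lean highest. Lean over obese was a 1.47-fold rise (log2 0.56 ± 0.0480 SE, n = 3 and 3, edgeR quasi-likelihood test, Benjamini-Hochberg adjusted p = 2.82e-11). Over control medium the rise was 1.75-fold with lean secretome (log2 0.80 ± 0.0482, edgeR adjusted p = 2.17e-15) and 1.19-fold with obese secretome (log2 0.25 ± 0.0499, edgeR adjusted p = 0.00172). In E0771 the same gene was scarce, with 47 to 87 reads per library: 2.41, 2.46 and 2.57 CPM in control, 2.43, 1.89 and 1.67 CPM in obese and 1.86, 2.10 and 2.80 CPM in lean. The E0771 groups overlapped for lean against either other medium. There edgeR called 0 of the 3 contrasts and 0 had an unadjusted p under 0.05. DESeq2 gave an adjusted p for both lean contrasts and called neither; the edgeR log2 value of lean over obese was 0.18 with a 95% interval from -0.24 to 0.60.

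Nfkbia (ENSMUSG00000021025) encodes I-kappa-B alpha, the inhibitor that NF-kB resynthesizes to pull its own dimers out of the nucleus. In E0771 it varied little across media: 32.2, 30.4 and 30.8 CPM in control, 29.3, 30.8 and 31.7 CPM in obese and 29.3, 29.6 and 34.8 CPM in lean. The 3 groups overlapped, and lean over obese was 0.02 on the log2 scale with a 95% interval from -0.11 to 0.16 (edgeR adjusted p = 0.779). In NMuMG it read 23.7, 26.4 and 26.5 CPM in control, 26.9, 26.0 and 25.6 CPM in obese and 28.7, 27.5 and 29.7 CPM in lean. The lean libraries of NMuMG lay above all others. Lean over control was a 1.12-fold rise (log2 0.17 ± 0.0610, edgeR adjusted p = 0.0294), while lean over obese was 0.12 with a 95% interval from -0.01 to 0.24 (edgeR adjusted p = 0.152). The lean over control call did not hold in the DESeq2 Wald test (adjusted p = 0.0505), nor without control replicate 1 (0.217), lean replicate 1 (0.0726) or lean replicate 3 (0.105).

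Relb (ENSMUSG00000002983) encodes the subunit of the slower, non-canonical NF-kB dimers, and edgeR and DESeq2 each called it in 0 of the 6 medium contrasts, although 1 of them (NMuMG lean over control) had an unadjusted p under 0.05. Its E0771 libraries held 12.3, 12.5 and 13.9 CPM in control, 10.7, 11.2 and 12.2 CPM in obese and 12.6, 11.0 and 13.7 CPM in lean. Its NMuMG libraries held 15.9, 17.2 and 16.4 CPM in control, 19.0, 17.1 and 17.6 CPM in obese and 18.5, 17.8 and 18.9 CPM in lean. The lean NMuMG libraries lay above the control ones without overlap (log2 0.16, 95% interval 0.02 to 0.31, edgeR adjusted p = 0.0724), and the obese E0771 libraries lay below theirs (log2 -0.18, interval -0.38 to 0.01, edgeR adjusted p = 0.366).

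**Figure D1:**
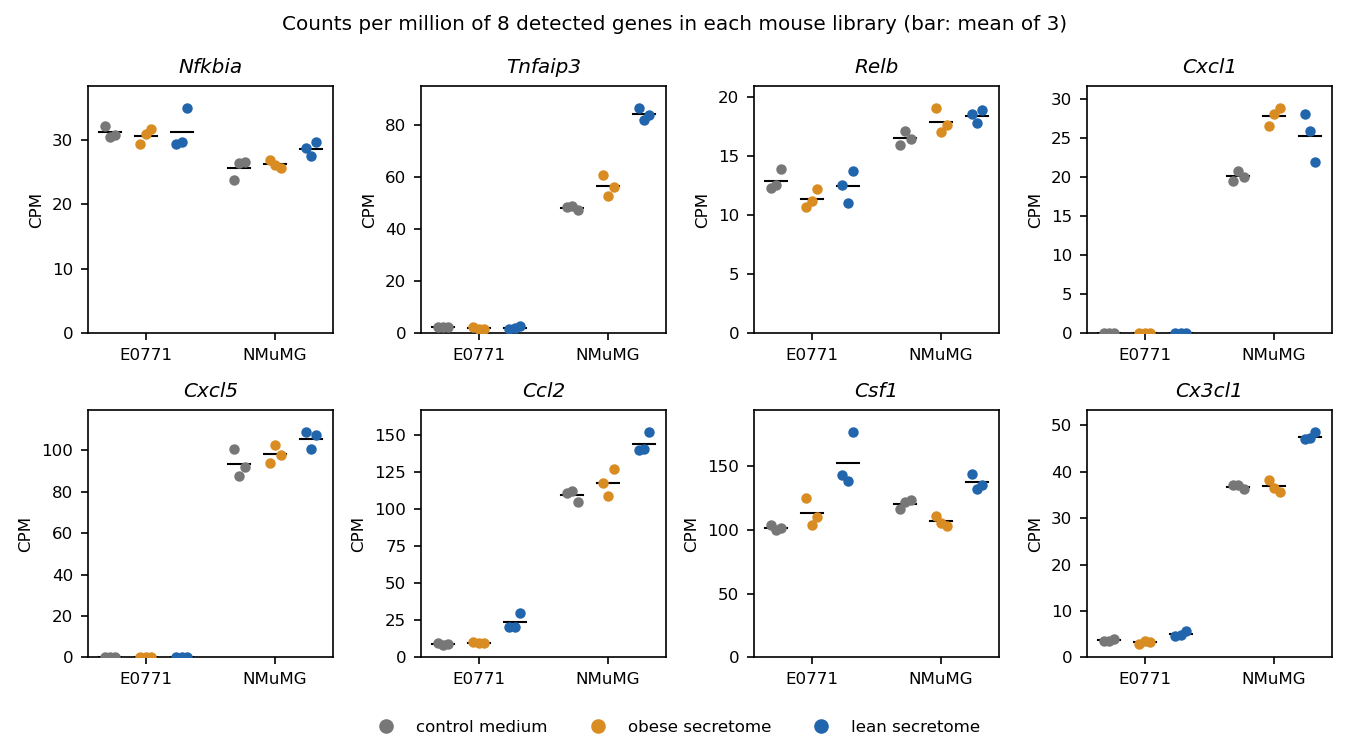
CPM (y axis, from 0, its own scale per gene) in each library of E0771 and NMuMG for the 8 genes that were tested in at least 1 line. Points are libraries coloured by medium and bars are means of 3; the lean libraries of Ccl2, Csf1 and Cx3cl1 lie above the obese ones in both lines, and those of Tnfaip3 do so in NMuMG.

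The neutrophil chemokines of the CXC type were measurable in NMuMG only for Cxcl1 and Cxcl5, and E0771 libraries held almost no reads of any of the 3. Cxcl1 (ENSMUSG00000029380), which draws neutrophils through the receptor Cxcr2, had 0, 3 and 0 reads in the E0771 control libraries, 1, 2 and 1 in the obese and 3, 1 and 3 in the lean. That is 14 reads in 9 libraries, at the floor of 3 reads or below it in each. In NMuMG it had 543 to 815 reads per library: 19.5, 20.8 and 20.0 CPM in control, 26.5, 28.0 and 28.8 CPM in obese and 28.0, 25.9 and 21.9 CPM in lean. Both secretomes lay above control without overlap, while the lean and obese libraries overlapped. Cxcl1 was the member with the larger rise under obese secretome, 1.40-fold over control (log2 0.49 ± 0.0724, edgeR adjusted p = 3.18e-05), against 1.27-fold under lean secretome (log2 0.34 ± 0.0725, edgeR adjusted p = 3.00e-04). These 2 contrasts share the control libraries. Lean against obese itself gave -0.15 with a 95% interval from -0.29 to -0.0014 (edgeR adjusted p = 0.112), a difference that passed only without lean replicate 1, the highest lean library (-0.23, adjusted p = 0.0190).

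Cxcl5 (ENSMUSG00000029371), another ligand of Cxcr2, was at 0 in each of the 9 E0771 libraries, which over 242890182 reads allows up to 0.0124 CPM (3 reads, counting error only). In NMuMG it gave 101, 87.4 and 92.0 CPM in control, 93.6, 102 and 97.8 CPM in obese and 109, 101 and 107 CPM in lean. The lean libraries lay above the control ones by a small margin, and obese overlapped with both. Lean over control was 1.13-fold (log2 0.18 ± 0.0451, edgeR adjusted p = 0.00199); lean over obese was 0.09 (edgeR adjusted p = 0.112) and obese over control 0.08 (edgeR adjusted p = 0.363).

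Cxcl2 (ENSMUSG00000058427), the close relative of Cxcl1 whose promoter is shown above, was at the floor in both lines. Its reads were 1, 0 and 0 in control, 0, 0 and 1 in obese and 1, 0 and 2 in lean for E0771, and 0, 0 and 2 in control with 0 in the other 6 libraries for NMuMG. Il6 (ENSMUSG00000025746), the cytokine that signals through Il6ra and Il6st, had 0, 0 and 0 reads in the E0771 control libraries, 0, 3 and 0 in the obese and 3, 2 and 3 in the lean. In NMuMG it had 2, 0 and 0 reads in control, 0 in the 3 obese libraries and 1, 0 and 1 in lean. No library exceeded 3 reads of either gene, and both were below the low-count filter and not tested. The lean and control libraries of E0771 did not overlap for Il6, but lean did not exceed the floor in any library.

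**Figure D2:**
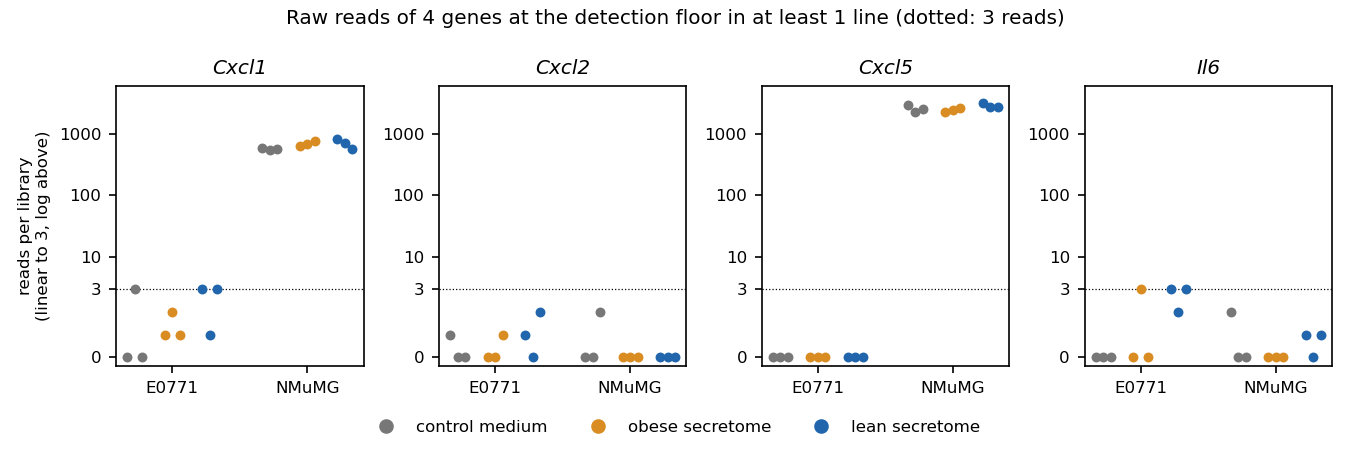
Raw reads per library (y axis, linear to 3 reads and logarithmic above) of Cxcl1, Cxcl2, Cxcl5 and Il6 in E0771 and NMuMG, with points for libraries coloured by medium. The dotted line is the floor of 3 reads; NMuMG stands above it for Cxcl1 and Cxcl5 alone, and no E0771 library does.

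The monocyte and macrophage factors were the members that rose with lean secretome in both lines. Ccl2 (ENSMUSG00000035385) encodes the main chemokine for monocytes bearing Ccr2. In E0771 it gave 9.63, 8.54 and 9.25 CPM in control, 10.4, 9.91 and 9.50 CPM in obese and 20.7, 20.3 and 29.7 CPM in lean. Every lean library was above every library of the other media, and lean replicate 3 was the highest. Lean over obese was a 2.37-fold rise (log2 1.25 ± 0.125, edgeR adjusted p = 3.94e-07) and lean over control a 2.57-fold rise (log2 1.36 ± 0.127, edgeR adjusted p = 1.34e-07). Obese over control was 0.11 with a 95% interval from -0.18 to 0.41 (edgeR adjusted p = 0.768). In NMuMG the levels were 111, 112 and 105 CPM in control, 117, 109 and 127 CPM in obese and 140, 141 and 152 CPM in lean. Lean again stood apart from both, by 1.21-fold over obese (log2 0.28 ± 0.0464, edgeR adjusted p = 3.10e-05) and 1.32-fold over control (log2 0.40 ± 0.0464, edgeR adjusted p = 1.04e-07). Obese over control was 0.12 in NMuMG and not past the threshold (edgeR adjusted p = 0.153), but passed without obese replicate 2, the lowest obese library (0.18, adjusted p = 0.00993). In GENCODE M21 Ccl2 overlaps the gene model Gm17268 on the other strand, which had 0 reads in all 18 libraries.

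Csf1 (ENSMUSG00000014599) encodes the growth factor on which macrophages depend. E0771 held 104, 99.5 and 101 CPM in control, 125, 104 and 110 CPM in obese and 143, 138 and 176 CPM in lean. The lean libraries lay above all others, with 1.35-fold over obese (log2 0.43 ± 0.0972, edgeR adjusted p = 0.00526) and 1.49-fold over control (log2 0.57 ± 0.0979, edgeR adjusted p = 9.30e-04). NMuMG held 116, 122 and 123 CPM in control, 111, 106 and 103 CPM in obese and 144, 132 and 135 CPM in lean. There the 3 groups did not overlap, with obese lowest, control between and lean highest. Lean was 1.28-fold over obese (log2 0.35 ± 0.0407, edgeR adjusted p = 1.59e-08) and 1.14-fold over control (log2 0.19 ± 0.0401, edgeR adjusted p = 2.43e-04). Csf1 was the one member that fell with obese secretome in NMuMG, by 0.16 on the log2 scale (SE 0.0409, edgeR adjusted p = 0.0138). That call was lost when control replicate 2 (adjusted p = 0.0614), control replicate 3 (0.0791) or obese replicate 3 (0.108) was left out.

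Cx3cl1 (ENSMUSG00000031778), also called fractalkine, is made as a membrane protein that tethers cells bearing Cx3cr1 and can be shed by Adam10 and Adam17. It was low in E0771, with 75 to 174 reads per library: 3.58, 3.54 and 3.88 CPM in control, 2.94, 3.54 and 3.26 CPM in obese and 4.54, 4.93 and 5.60 CPM in lean. Lean stood above both other groups, by 1.54-fold over obese (log2 0.62 ± 0.143, edgeR adjusted p = 6.66e-04) and 1.36-fold over control (log2 0.45 ± 0.141, edgeR adjusted p = 0.00896). Without lean replicate 3 the second of these was 0.36 and did not pass (adjusted p = 0.0511). NMuMG held 37.2, 37.1 and 36.3 CPM in control, 38.3, 36.6 and 35.7 CPM in obese and 47.1, 47.2 and 48.5 CPM in lean. Control and obese overlapped and lean was separate, 1.28-fold over obese (log2 0.36 ± 0.0506, edgeR adjusted p = 7.39e-07) and 1.29-fold over control (log2 0.37 ± 0.050, edgeR adjusted p = 1.93e-07).

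**Figure D3:**
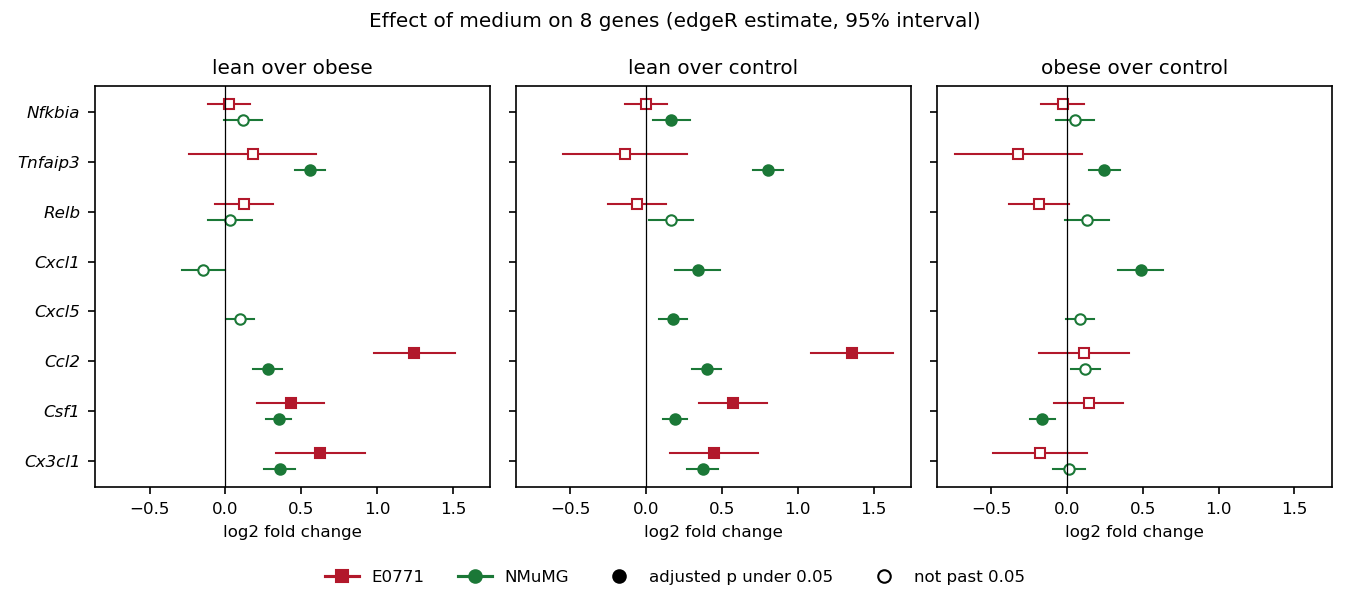
Log2 fold changes (x axis) of 8 genes for each pair of media, with 95% intervals as lines, squares for E0771 and circles for NMuMG. Filled symbols passed an adjusted p of 0.05; in the lean over obese panel the filled symbols are Ccl2, Csf1 and Cx3cl1 in both lines and Tnfaip3 in NMuMG, all to the right of 0.

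Counted over the members, lean over obese was called in 3 of 6 tested genes in E0771, each higher, where 52.7% of the 13813 genes tested were called and 25.8% were called higher. In NMuMG it was called in 4 of 8, each higher, where 35% of the 15014 genes tested were called and 17.6% were called higher. Lean over control was called in 3 of 6 members in E0771, each higher (56.3% of all genes, 27.3% higher), and in 7 of 8 in NMuMG, each higher (38.2%, 19.1% higher). Counted in either direction, the E0771 shares were no larger than those of all genes tested. Obese over control was called in 3 of 8 members in NMuMG (Tnfaip3 and Cxcl1 higher, Csf1 lower), where 5.01% of all genes were called, 2.34% higher and 2.66% lower. In E0771 it was called by edgeR in 0 of 6, where 2.61% of all genes were called; 0 of 6 had an unadjusted p under 0.05, and DESeq2 called 0 of the 5 for which it gave an adjusted p. For lean over obese the lean and obese libraries were fully separate in 3 of 6 members in E0771 (60.3% of all genes) and 5 of 8 in NMuMG (45.2%). The same was so for lean over control in 3 of 6 (61.4%) and 8 of 8 (48%), and for obese over control in 2 of 6 (21.5%) and 3 of 8 (21.3%). The median log2 value over the members tested was 0.30 in E0771 and 0.20 in NMuMG for lean over obese, beside 0.0035 and -0.0023 over all genes. The filter can pass a gene through the group in which it is high, so these medians describe the genes tested and not all 10. Since the members were chosen with earlier results known, their counts beside the shares of all genes are description and not a test.

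Without lean replicate 3, lean over obese in E0771 was 1.04 for Ccl2, 0.32 for Csf1 and 0.54 for Cx3cl1 on the log2 scale, and each still passed. Other marker genes moved with lean secretome too: the 6 fibroblast markers summed to between 872 and 977 CPM in the E0771 control libraries, between 641 and 868 CPM in the obese and between 333 and 371 CPM in the lean, most of it Col1a1. The fall lay mainly in 2 collagen genes, Col1a1 (684, 523 and 204 CPM in control, obese and lean) and Col3a1 (129, 125 and 45.2 CPM). Pdgfra moved less (117, 116 and 102 CPM), and the remaining markers averaged under 1 CPM. In NMuMG the fibroblast list was low and summed to between 5.71 and 6.29 CPM in control, 3.78 and 4.71 CPM in obese and 3.23 and 3.44 CPM in lean. The 7 adipocyte markers summed to between 0.393 and 0.741 CPM in NMuMG control, 0.372 and 1.08 CPM in obese and 2.03 and 2.19 CPM in lean, most of it the lipid droplet gene Cidec. In each NMuMG group 4 of the 7 were at 0 in every library, though not the same 4 in each group, and Adipoq had 2 reads or fewer. In E0771 the 7 adipocyte markers summed to at most 1.61 CPM. The 5 endothelial markers, nearly all of it Pecam1, summed in E0771 to between 3.54 and 4.47 CPM in control, 3.26 and 5.62 CPM in obese and 2.15 and 3.09 CPM in lean, and in NMuMG to at most 0.376 CPM. The epithelial sum of NMuMG given above was also highest with lean secretome, most of it Krt8 and Krt18. Krt8 averaged 3446, 3298 and 3822 CPM in control, obese and lean, and Krt18 averaged 2524, 2413 and 2779 CPM. Krt19 was near level between control and lean (763, 683 and 770 CPM), and Cdh1 was highest in control (542, 476 and 522 CPM). The part of these marker genes in the member results was not tested.

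The interaction term in a joint fit of the 18 libraries asked whether lean secretome acted differently on the members in the lines. Only the 6 members tested in each line entered, while the shares of all genes beside them were not limited to such genes. The medium given in the labels differed between the lines, so line and medium cannot be told apart. For lean over obese, 1 of 6 differed, against 34.2% of the 16529 genes in that fit. It was Ccl2, whose effect was larger in E0771 by 0.99 on the log2 scale (SE 0.167, edgeR adjusted p = 2.95e-04). Tnfaip3 gave -0.35 (95% interval -0.71 to -0.0015, edgeR adjusted p = 0.118), so the rise in NMuMG and the missed threshold in E0771 were not shown to differ for this contrast, although without E0771 lean replicate 3 the value was -0.55 and passed (adjusted p = 0.0200). Cx3cl1 gave 0.29 (95% interval 0.03 to 0.54, adjusted p = 0.0787), and it passed without E0771 lean replicate 1 (0.35, adjusted p = 0.0363). Csf1 gave 0.10 (95% interval -0.15 to 0.34, adjusted p = 0.603).

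For lean over control, 3 of 6 members differed between the lines, against 34.5% of all genes. Ccl2 rose more in E0771 by 0.99 (SE 0.170, edgeR adjusted p = 3.32e-04) and Csf1 by 0.41 (SE 0.115, edgeR adjusted p = 0.0114). Tnfaip3 differed in the other direction, by -0.91 (SE 0.167, edgeR adjusted p = 2.69e-05). Nfkbia did not pass with all libraries, but did without E0771 lean replicate 3 (-0.23, adjusted p = 0.0413). For obese over control edgeR called 0 of 6 (1.69% of all genes), although 3 of the 6 had an unadjusted p under 0.05. Tnfaip3 gave -0.56 (edgeR adjusted p = 0.0958) and Csf1 0.32 (edgeR adjusted p = 0.240); DESeq2 called both (adjusted p = 0.0457 and 0.0398).

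Levels of the members also differed between the lines before any secretome was added. In control medium 6 of 6 tested members differed, against 80.5% of all genes tested, and 5 of them were lower in E0771 (43.4% of all genes). The shares of all genes are again those of the joint fit, which was not limited to genes tested in each line. The libraries of the lines did not overlap in 6 of 6 (82.7% of all genes). Tnfaip3 stood at 0.0475 times its NMuMG level (log2 -4.40 ± 0.0948, edgeR adjusted p = 1.53e-34), Ccl2 at 0.0774 times (log2 -3.69 ± 0.124, edgeR adjusted p = 3.60e-13) and Cx3cl1 at 0.0920 times (log2 -3.44 ± 0.0834, edgeR adjusted p = 1.05e-32). The gaps were smaller for Relb, at 0.723 times (edgeR adjusted p = 3.02e-06), and Csf1, at 0.781 times (edgeR adjusted p = 0.00101). Nfkbia was slightly higher in E0771, at 1.13 times (edgeR adjusted p = 0.0149), a call that did not hold without E0771 control replicate 1 (adjusted p = 0.0528) or NMuMG control replicate 1 (0.125). Cxcl1 had 3 reads in the E0771 control libraries and 1681 in those of NMuMG, a ratio of 516 with an exact 95% counting interval from 176 to 2505. Cxcl5 had 0 and 7841 reads, a ratio whose exact 95% counting interval begins at 1957. Set against the floor of 3 reads for the E0771 group, its NMuMG level was 2407-fold higher.

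The rest of the pathway was read from 9 lists that hold 89 genes, of which 67 were tested in E0771 and 72 in NMuMG. For lean over obese, 34 rose and 15 fell in E0771, with a median log2 value of 0.18. In NMuMG 22 rose and 16 fell, with a median of 0.02. Obese over control called far fewer, 2 genes in E0771, both lower, and 10 in NMuMG, of which 7 were higher. The shares of all genes called in these contrasts are those given above. These lists were also chosen with earlier results known, so their counts are description only. The genes named for lean over obese are, per list and line, the largest called rise and fall among genes at a mean log2 CPM of at least 1, and genes below that level may have moved more.

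Of the NF-kB subunits, 3 of 4 rose and 1 fell in E0771: Rel, the c-Rel subunit, rose by 0.36 ± 0.105 and Nfkb1, which encodes the p105 precursor, fell by 0.31 (SE 0.0469). In NMuMG 1 of 4 passed, Nfkb2, the partner of Relb, at 0.14 ± 0.0399. Among 11 kinases and adaptors upstream, 5 rose and 1 fell in E0771, led by Map3k14, the NIK kinase of the non-canonical pathway, at 0.74 ± 0.0846. The fall was in Tab1, an adaptor of the TAK1 kinase, by 0.44 (SE 0.0549). In NMuMG 2 of 11 rose, Map3k14 at 0.26 and Ikbkg at 0.61 ± 0.108. Ikbkg, the regulatory subunit of IKK, overlaps G6pdx on the other strand, and G6pdx was itself at 115 CPM in control, 133 in obese and 179 in lean NMuMG libraries, where Ikbkg averaged 125, 143 and 221 CPM. In E0771 G6pdx averaged 568 CPM in obese and 739 CPM in lean libraries while Ikbkg averaged 103 CPM in both and was not called. The strand setting of the counting is not given in the sources used here, so Ikbkg is reported as uncertain.

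The other feedback regulators went both ways: 4 rose and 5 fell of 12 in E0771, and 3 rose and 2 fell of 13 in NMuMG. In E0771 the extremes at that level were Nfkbib, a further I-kappa-B inhibitor, up by 0.66 ± 0.0646, and Zc3h12a, an RNase that cleaves cytokine mRNAs, down by 0.57 (SE 0.108). Below it Traf1, an adaptor of TNF receptors picked after its value was seen, rose by 1.58 ± 0.226, from 0.886 to 2.67 CPM. In NMuMG Birc3 rose by 0.30 ± 0.0862 and Bcl3, an atypical I-kappa-B protein, fell by 0.34 (SE 0.0529).

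Among the other cytokines and chemokines 5 of 9 rose in E0771 and 6 of 12 in NMuMG, and the remaining 4 and 6 did not pass. Ccl7, a monocyte chemokine encoded next to Ccl2, averaged 8.19 CPM in lean and 3.19 CPM in obese E0771 libraries (log2 1.35 ± 0.315, edgeR adjusted p = 0.00658). Ccl20, which draws cells bearing Ccr6, averaged 16.5 CPM in lean and 4.62 CPM in obese NMuMG libraries (log2 1.82 ± 0.139, edgeR adjusted p = 2.86e-09). The list had 22 genes, and the rest were too low to test. In the effector list, 5 rose and 3 fell of 10 in E0771, where Ier3, an early response gene, averaged 235 CPM in lean and 96.5 CPM in obese libraries (log2 1.28 ± 0.154) and Tnfaip2, a gene induced by TNF, fell by 0.41 (SE 0.0461). In NMuMG 5 rose and 5 fell of 10: Ptgs2, the inducible enzyme of prostaglandin synthesis, averaged 138 CPM in lean and 59.4 CPM in obese (log2 1.20 ± 0.126), and the collagenase gene Mmp13 fell by 0.36 (SE 0.0505).

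The receptors for the secreted members were mostly below the filter in these cells. Cxcr1, Cxcr2, Ccr2 and Cx3cr1 were too low to test in either line. Il6ra, the ligand-binding chain for Il6, fell in each line for lean over obese: by 0.66 (SE 0.0475) from 106 to 67.1 CPM in E0771, and by 0.65 (SE 0.0949) from 12.6 to 8.11 CPM in NMuMG. Il6st, the signalling chain it shares with other cytokine receptors, rose by 0.17 ± 0.050 in E0771. In NMuMG Il6st was instead called lower, at -0.14, the median of the 3 receptors tested there. The third was Csf1r, at 0.438 CPM in lean and 0.305 CPM in obese libraries, which was not called. Of the sheddases of Csf1 and Cx3cl1, Adam17 rose by 0.24 ± 0.0421 and Rhbdf2, its trafficking partner, fell by 0.55 (SE 0.0823) in E0771, and 2 of 3 rose in NMuMG, with Adam10 at 0.15 ± 0.0337. Regulators of AU-rich mRNA decay, which set the lifetime of many cytokine mRNAs, gave 2 up and 2 down of 6 in E0771 and 4 down of 6 in NMuMG. In E0771 Elavl1, which stabilizes such mRNAs, rose by 0.26 ± 0.0440 and Zfp36l1, which promotes their decay, fell by 0.40 (SE 0.0555). The largest fall in NMuMG was Hnrnpd at -0.38 ± 0.0351. AP-1 and C/EBP factors, which bind beside NF-kB at many inflammatory genes, rose in 8 of 10 and fell in 1 in E0771, where Atf3 averaged 10.8 CPM in lean and 4.05 CPM in obese libraries (log2 1.40 ± 0.121) and Cebpb fell by 0.49 (SE 0.0473). In NMuMG 3 rose and 3 fell of 10, with Fos at 0.77 ± 0.181 and Jun at -0.30 ± 0.0655. In GENCODE M21, Nfkb2, Nfkbib, Bcl3, Tnfaip2, Il6ra, Adam17, Elavl1, Zfp36l1, Hnrnpd, Atf3, Cebpb and Jun also overlap gene models on the other strand and are uncertain in the same way. For Nfkbib one of these is Sirt2, which averaged 71.5 CPM in obese and 64.6 CPM in lean E0771 libraries, where Nfkbib averaged 39.0 and 61.9 CPM. Nfkb1 and Map3k14 each overlap a gene model on their own strand, and how reads in the shared stretch were assigned is not given in the sources used here.

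**Figure D4:**
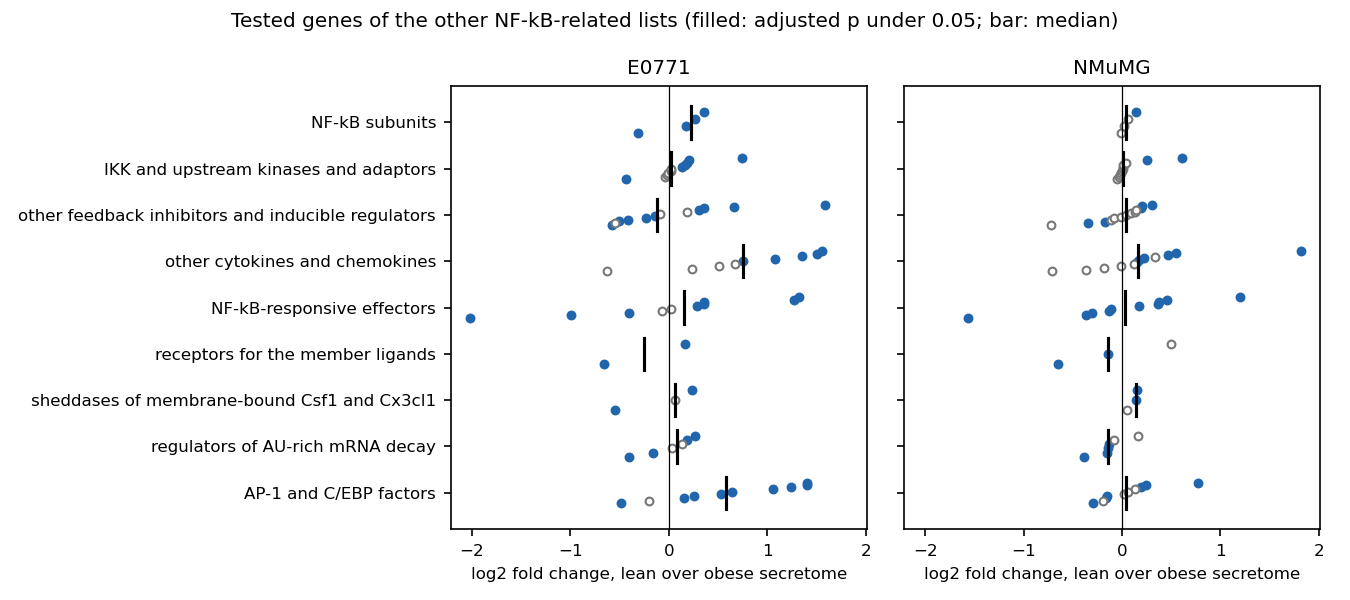
Log2 fold change of lean over obese secretome (x axis) for each tested gene of the 9 lists in E0771 and NMuMG. Filled points passed an adjusted p of 0.05, open points did not, and bars are list medians; the AP-1 and C/EBP median is 0.58 in E0771 and 0.04 in NMuMG.

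The genes whose pattern was most like that of a member were sought over the 18 libraries, centred within line, among 9437 genes tested in both lines. The measure was the root mean square difference of log2 CPM, so 0 would be the same pattern. For Csf1 the nearest were Wwc1 at 0.0582, Mon1a at 0.0769 and Ubap1 at 0.0772, where the median over all genes was 0.241. For Nfkbia they were Zfp335 at 0.0476, Trmt1 at 0.050 and Etv6 at 0.0513, where the median was 0.148. Nfkbia itself varied by only 0.0814 around its line means, and Csf1 by 0.219, so many little-varying genes lay near the former. Cxcl1 was too low in E0771 to be compared.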

How the data were processed

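The authors deposited raw counts per Ensembl gene ID for the 18 mouse libraries of a directional poly(A) protocol. The submitters' processing notes name cutadapt 1.16, STAR 2.7.9a, featureCounts 1.6.3 and build GRCm39, and the strand setting and annotation release are not given in the sources used here. Human SkBr3 libraries were not used. Symbols came from GENCODE M21 (GRCm38), which named 52073 of 56980 IDs holding 99.68% of the counts. The members and lists were chosen with earlier results of these data known. Each line was fitted alone in edgeR 4.0.16 (R 4.3.3): filterByExpr, TMM factors, a robust quasi-likelihood fit and an F test, two-sided, with Benjamini-Hochberg adjustment over all genes tested and calls at an adjusted p under 0.05. Line comparisons used 1 fit of 18 libraries with 6 groups. DESeq2 1.42.0 was an alternative. The text names the 10 members, and per list and line the called gene with the largest rise and largest fall for lean over obese at a mean log2 CPM of at least 1. Map3k14 in NMuMG and Traf1 in E0771 were added after their values were seen. SE is the log2 fold change divided by the root of F. Intervals and the floor of 3 reads cover counting error only where said. Between pairs of replicates of a group the chi-square per degree of freedom ran from 2.27 to 8.37, where counting error alone would give about 1. This compares variances. The scripts were tested on simulated data with 200 changed genes.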

Additional observations from a re-analysis of the deposited data

Results flagged for a closer look

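The effect of medium on 3 members differed between E0771 and NMuMG by the interaction test of edgeR over 18 libraries, E0771 minus NMuMG on the log2 scale. For Ccl2 the difference was 0.99 for lean over control (SE 0.170, adjusted p = 3.32e-04) and 0.99 for lean over obese (SE 0.167, adjusted p = 2.95e-04), with the larger rise in E0771, where its level was lower. For Csf1 it was 0.41 for lean over control (SE 0.115, adjusted p = 0.0114). For Tnfaip3 it was -0.91 for lean over control (SE 0.167, adjusted p = 2.69e-05), with the rise in NMuMG, where its level was higher. By the labels the lines also differed in growth medium, so line and medium cannot be told apart. Groups of 3 libraries were too small for the test of single outlying libraries.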

How the results depend on the processing

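The alternatives were DESeq2 size factors, no filter, the DESeq2 Wald test, a replicate block, only the groups compared, and leaving out each library. For E0771 minus NMuMG, obese over control, 279 genes and 0 members were called. DESeq2 called 422 genes and 2 members (Tnfaip3 and Csf1), and no filter gave 428 genes and 1 member (Csf1). Without 1 library at a time the calls ran from 149 to 392 genes (151 without E0771 control 1, 149 without E0771 obese 3, and 154, 163 and 164 without NMuMG control 1, control 2 and obese 1) and from 0 to 1 member (1 without E0771 lean 3 or obese 1). The 360 genes called for E0771 obese over control became 626 with no filter and 79 to 601 without 1 library: 79 without control 1, 110 without control 2, 192 without obese 1, 89 without obese 3 and 601 without lean 3. The 752 for NMuMG became 384 to 893: 384 without control 1, 465 without control 2, 490 without obese 1 and 482 without obese 3. For E0771 minus NMuMG, lean over obese, the members called without 1 library were 1 to 2 (2 without E0771 lean 1 or lean 3).

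Changes of sign were seen in member values that had passed no test. E0771 lean over control in Nfkbia (-0.0041) was 0.0061 with DESeq2 size factors, 0.0059 by DESeq2 and 0.0045 with only the 2 groups. Without 1 library it ran from -0.0868 to 0.0380, and Relb in the same contrast from -0.134 to 0.0184. E0771 lean over obese ran from -0.0581 to 0.0669 in Nfkbia and from -0.0080 to 0.342 in Tnfaip3, and NMuMG lean over obese from -0.0075 to 0.0798 in Relb. NMuMG obese over control ran from -0.0166 to 0.0407 in Cx3cl1 and from -0.0022 to 0.0787 in Nfkbia. E0771 minus NMuMG ran from -0.0172 to 0.176 for lean over obese in Csf1 and from -0.0590 to 0.0575 for obese over control in Ccl2. The cause was not tested.

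The labels name no shared batch or day for a replicate number. Deviations of same-numbered libraries had correlations in E0771 between -0.0942 and 0.110 (9 pairs) and in NMuMG between -0.0285 and 0.0251 (9 pairs), and 5 and 4 of 9 libraries correlated best with their own number. With a replicate block the calls moved from 7275 to 7150 genes for E0771 lean over obese and from 5261 to 5190 for NMuMG. The block turned the sign of E0771 minus NMuMG, obese over control, in Ccl2 (-0.0050) and gave the E0771 over NMuMG level of Nfkbia as 0.16 with an adjusted p of 0.0972.

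Cxcl2 and Il6 in both lines and Cxcl1 and Cxcl5 in E0771 had too few reads to test. E0771 Tnfaip3, at 47 to 87 reads, had wide intervals. The counts of genes and members called for the other contrasts stayed within 1.5 times under the alternatives run.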
